A study of Mus musculus with 33 samples.

Results

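The 9 genes described here encode chemokine ligands measured in microglia: Ccl2, Ccl3, Ccl4, Ccl6, Ccl9, Ccl12, Cxcl2, Cxcl10 and Cxcl16. They were chosen by name from the 54146 genes counted. The data were RNA-seq gene counts of 33 libraries of sorted C57BL/6 mouse microglia in 10 groups, and all mice were labelled female. Microglia had been taken from each brain without enzymes and sorted by FACS. At 3 months, 4 WT libraries served as controls of 4 germline IRF8KO libraries, and 3 other WT libraries as controls of 3 Batf3KO libraries. At 9 months there were 3 libraries each of WT, IRF8KO, 5xFAD (genotype label 5xFAD/WT) and 5xFAD/IRF8KO, where 5xFAD is a transgenic mouse that carries familial Alzheimer's disease mutations and deposits amyloid. In the conditional experiment, 3 IRF8flox libraries (called flox here) were set against 4 IRF8floxCx3cr1CreERT2 libraries (called Cre) at 3 months. Cx3cr1CreERT2 is a tamoxifen-dependent recombinase driven from the Cx3cr1 gene, which microglia and other Cx3cr1-expressing cells use. Both groups were labelled as given tamoxifen on 5 days from postnatal day 12. The design text gives a Rosa26LSL-EYFP reporter in the conditional line, and the sorting of microglia positive for YFP. The labels speak of isolation from each brain but do not say whether a library pools brains, so p-values measure only the spread between these libraries, which may be technical. The questions were how these ligands differed with amyloid pathology, with loss of Irf8 in the germline or after birth, and with loss of Batf3.

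Chemokines are small secreted proteins that direct the movement of leukocytes through G-protein-coupled receptors. In the brain, microglia release them after injury, infection or contact with amyloid, and the receptors that read them sit on microglia themselves and on blood leukocytes. Irf8 and Batf3 are transcription factors of the myeloid lineage; Irf8 is known for restraining neutrophil production in bone marrow and for its part in microglial identity. Ccl3 and Ccl4 are inflammatory ligands that attract monocytes and T cells, and Ccl3 binds Ccr1. Ccl6 and Ccl9 are rodent ligands of Ccr1. Ccl2 and Ccl12 are ligands of Ccr2, the receptor that brings monocytes out of the blood. Cxcl2 attracts neutrophils through Cxcr2, Cxcl10 is an interferon-induced ligand of Cxcr3, and Cxcl16 is a membrane-anchored ligand of Cxcr6 that can be shed.

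On GRCm38, 7 of the genes lie on chromosome 11 and 2 on chromosome 5. Ccl9 (11: 83572919 to 83578636), Ccl6 (11: 83587882 to 83593087), Ccl3 (11: 83647844 to 83649355) and Ccl4 (11: 83662584 to 83664683) follow each other with gaps of 9.2, 54.8 and 13.2 kb. Ccl2 (11: 82035571 to 82037453) and Ccl12 (11: 82101845 to 82103400) form another pair, 64.4 kb apart. Cxcl16 lies at 11: 70453983 to 70459984, Cxcl2 at 5: 90903871 to 90905938 and Cxcl10 at 5: 92346638 to 92348889. The counts ignored strand, so reads of 4 members that overlap another gene could not be fully separated from it: Ccl2 overlaps Gm17268, Ccl6 overlaps E230016K23Rik, Cxcl10 overlaps Art3 and Cxcl16 overlaps Zmynd15, each on the opposite strand. Promoter sequences of 6 members were at hand (RefSeq, GRCm38.p6), and those of Ccl3, Ccl9 and Ccl12, which were lower in germline Irf8 loss, and of Cxcl2 and Cxcl10, which were not, are shown as the 250 bases before the RefSeq start, 5′ to 3′ on the gene's strand. Capitals mark matches to the searched motifs.
Ccl3 (chr11:83649379-83649628, minus strand): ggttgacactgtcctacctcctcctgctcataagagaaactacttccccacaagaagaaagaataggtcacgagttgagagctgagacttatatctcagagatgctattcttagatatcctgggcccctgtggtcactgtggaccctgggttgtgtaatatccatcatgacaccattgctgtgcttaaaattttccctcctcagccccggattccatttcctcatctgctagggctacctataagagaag
Ccl9 (chr11:83578637-83578886, minus strand): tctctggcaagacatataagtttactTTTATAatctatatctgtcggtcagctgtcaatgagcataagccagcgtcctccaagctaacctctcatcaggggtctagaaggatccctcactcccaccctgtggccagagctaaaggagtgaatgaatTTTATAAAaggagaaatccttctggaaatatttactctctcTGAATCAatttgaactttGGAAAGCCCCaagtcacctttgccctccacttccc
Ccl12 (chr11:82101595-82101844, plus strand): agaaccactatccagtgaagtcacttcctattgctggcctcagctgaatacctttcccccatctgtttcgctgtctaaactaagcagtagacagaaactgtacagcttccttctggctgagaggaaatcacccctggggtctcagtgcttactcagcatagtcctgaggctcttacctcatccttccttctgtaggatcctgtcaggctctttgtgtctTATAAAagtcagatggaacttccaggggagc
Cxcl2 (chr5:90903649-90903898, plus strand): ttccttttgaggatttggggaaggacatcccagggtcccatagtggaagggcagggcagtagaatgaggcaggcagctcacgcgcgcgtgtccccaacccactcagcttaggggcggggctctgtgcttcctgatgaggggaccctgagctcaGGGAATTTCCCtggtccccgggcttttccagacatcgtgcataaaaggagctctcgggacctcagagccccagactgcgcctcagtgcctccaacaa
Cxcl10 (chr5:92348890-92349139, minus strand): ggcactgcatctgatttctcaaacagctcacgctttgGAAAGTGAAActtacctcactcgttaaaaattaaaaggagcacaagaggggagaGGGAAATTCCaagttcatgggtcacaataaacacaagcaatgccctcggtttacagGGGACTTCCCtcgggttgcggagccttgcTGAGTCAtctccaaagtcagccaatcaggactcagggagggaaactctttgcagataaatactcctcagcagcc
The motifs, searched on both strands, were the interferon-stimulated response element, the composite PU.1-IRF element, the kappa-B consensus, AP-1 TGANTCA, C/EBP TTGCNNAA, PU.1 GAGGAAGT and the TATA box TATAAA. Of the 32851 RefSeq promoters of this length, 2.98% held the response element, 2.30% the composite element, 3.90% the kappa-B consensus, 6.75% AP-1, 9.56% C/EBP, 2.44% PU.1 and 12.4% the TATA box. Cxcl10 had the response element 213 bases before its start, kappa-B matches at 159 and 103 bases and AP-1 at 74 bases. Cxcl2 had overlapping kappa-B matches on both strands at 97 and 96 bases. Ccl9 had kappa-B on the reverse strand at 35 bases, AP-1 at 53 bases and TATA matches at 224, 94 and 92 bases, the last of which overlaps the one before it. Ccl12 had TATA at 31 bases. No motif was matched in the windows of Ccl3 and Ccl6, which says only that these letters are not there.

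Libraries held from 605376 counts in genes (WT at 9 months, replicate 3) to 18357762, and a count of 0 allowed up to 4.96 CPM (counts scaled by library size) in the shallowest and 0.163 in the deepest. The limits given for a count of 0, and the bounds and counting intervals of count ratios, cover counting error only. The intervals of fitted fold changes came from the edgeR fit and also include its estimate of the spread between libraries. In the germline experiment, Irf8 ranged from 213 to 305 CPM in WT and 90.3 to 153 in the knockout at 3 months, and from 586 to 681 against 16.7 to 141 CPM at 9 months. These counts covered the whole gene, and the deleted part is not given in the sources used here. Batf3 fell in its knockout, where it ranged from 0.440 to 0.524 CPM against 23.5 to 26.9 in WT (adjusted p = 1.58e-08, edgeR). The library labelled Cre replicate 1 had 1134 CPM of Irf8, within the 972 to 1244 CPM of the flox libraries. The other Cre libraries had 367 to 521 CPM. The comparison of Cre with flox is given with and without Cre replicate 1. The libraries also differed in markers of other cell types. In the IRF8KO experiment at 3 months, a list of 12 neutrophil markers took 0.858 to 5.39% of WT and 7.61 to 16.4% of knockout counts. At 9 months it took 6.46 to 9.05% of IRF8KO and 8.18 to 14.5% of 5xFAD/IRF8KO counts. It took at most 0.0112% in any other library, the WT controls of Batf3KO among them. A list of 10 microglial markers took 1.19 to 2.21% of WT and 0.619 to 1.13% of knockout counts in the IRF8KO experiment at 3 months. It took 6.68 to 6.90% in the WT controls of Batf3KO. At 9 months its share was 6.37 to 6.53% for WT, 0.367 to 0.904% for the knockout, 5.32 to 6.02% for 5xFAD and 0.698 to 0.852% for 5xFAD/IRF8KO, where Sall1, a transcription factor that marks microglia, was at 0. In a sorted bulk library, fewer cells of a type and less RNA per cell cannot be told apart. Against the label, Y-linked transcripts were present in all WT libraries at 9 months (275 to 307 CPM over 4 genes), in 5xFAD replicate 3 (156 CPM) and in all 5xFAD/IRF8KO libraries (230 to 269 CPM), while 5xFAD replicates 1 and 2 had none and had Xist at 76.2 and 104 CPM. IRF8KO libraries aged 9 months were mixed (4.63 to 149 CPM, with Xist at 5.26 to 184 CPM), and Y-linked transcripts were also present in both germline groups aged 3 months.

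Levels were compared across the 10 groups on one scale of CPM normalized over all 33 libraries. 5xFAD had the highest mean of Ccl2, Ccl3, Ccl4, Ccl6, Ccl12 and Cxcl16. For Ccl3 (190.0 ± 94.1 CPM, SD, n = 3), Ccl4 (234.8 ± 82.5) and Cxcl16 (153 ± 19.9), no 5xFAD library overlapped the libraries of the next group, which was flox for Ccl3, the WT group of the IRF8KO experiment for Ccl4, and the WT group of the Batf3KO experiment for Cxcl16. For Ccl2 (26.5 ± 17.5), Ccl6 (1206 ± 437) and Ccl12 (319 ± 147.9), the 5xFAD libraries overlapped those of the next group. Ccl9 had its highest means in flox (529.7 ± 197) and Cre (465 ± 87.4), which overlapped each other and lay above every 5xFAD library (mean 222 ± 28.0). At the other end, Ccl2, Ccl3, Ccl4, Ccl9 and Ccl12 were lowest in a germline Irf8 group. Ccl2 was not detected in the 3 libraries of 5xFAD/IRF8KO, where 0 counts allow up to 0.0800 CPM over the group. Cxcl2 ran the other way: its highest means were 12.97 ± 7.98 CPM in IRF8KO at 9 months, 11.8 ± 9.86 in IRF8KO at 3 months (n = 4) and 5.46 ± 3.30 in 5xFAD/IRF8KO, and each of these overlapped the next. Cxcl10 was low everywhere, and its highest mean, 16.1 ± 21.5 CPM in IRF8KO at 3 months, overlapped the groups below it. Cxcl16 had its lowest mean in flox (32.3 ± 0.233). Cre stood at 66.9 ± 20.85 (n = 4), between the means of the WT groups (43.3 to 91.4). The Ccl12 mean of flox (48.5 ± 11.2) was below those of the WT groups (62.35 to 178). That of Cre (130.5 ± 63.5) lay between them.

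**Figure D1:**
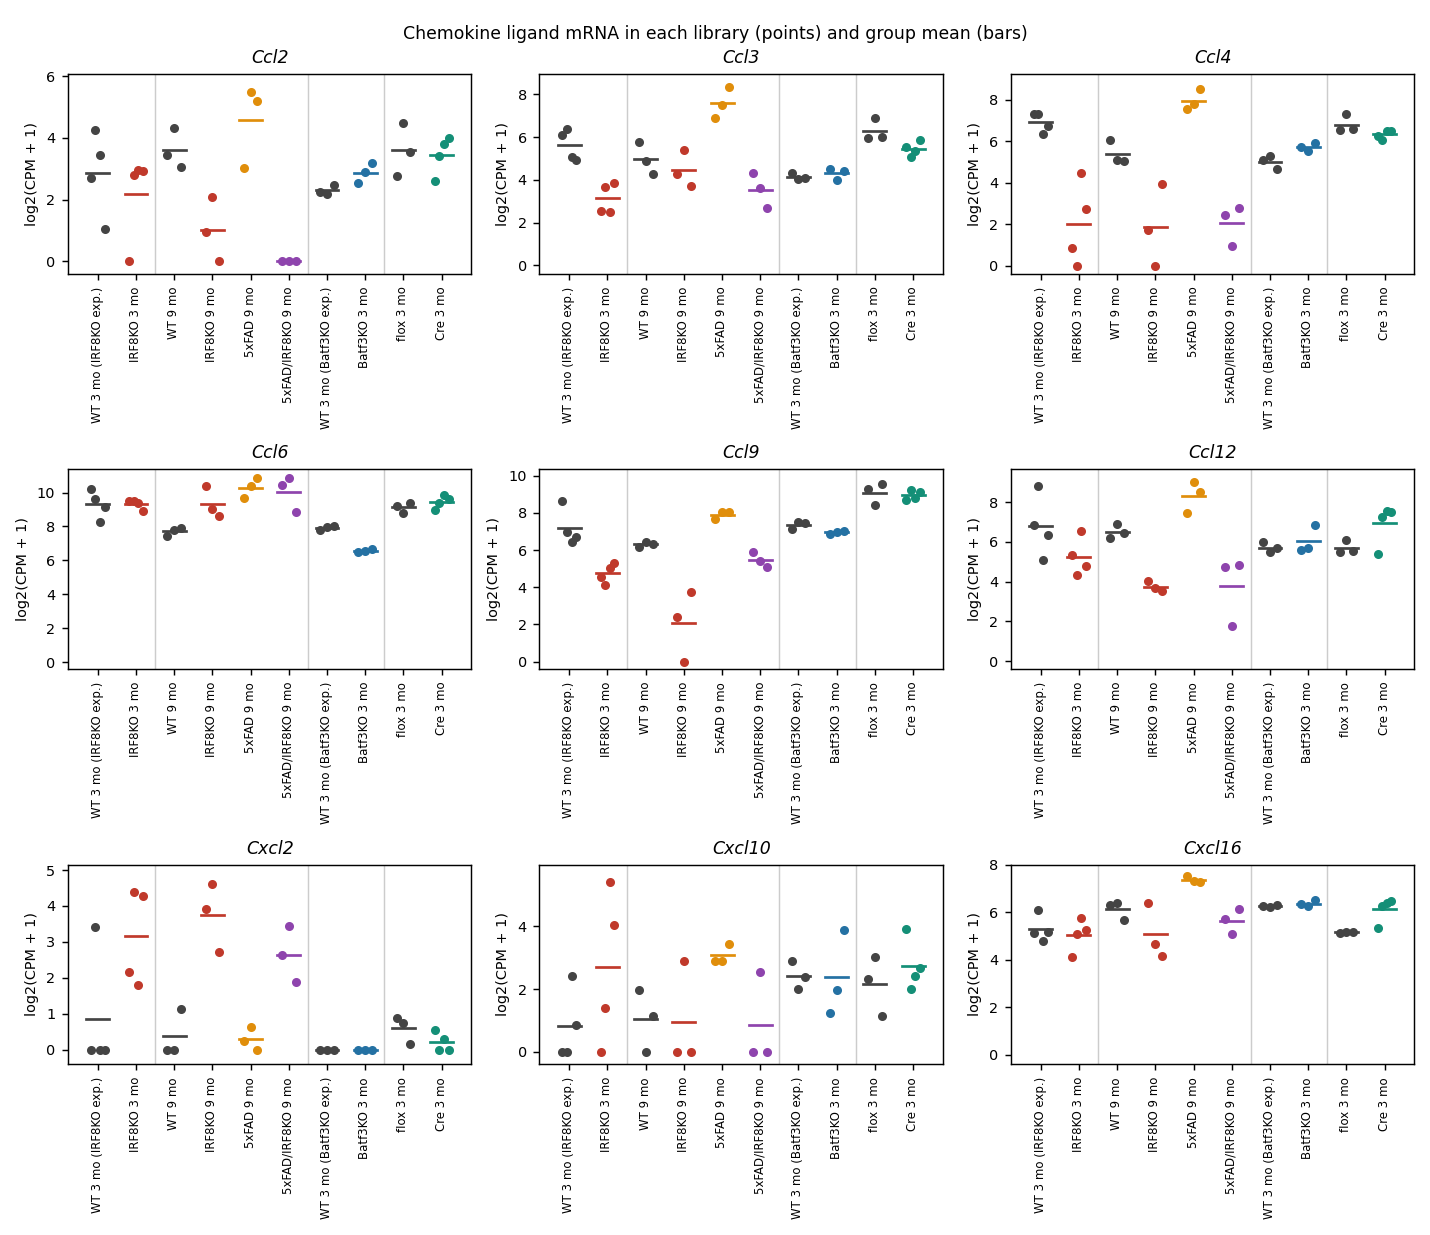
Level of each of the 9 ligands in every library, as log2(CPM + 1) with CPM normalized within the library's own experiment; points are libraries, horizontal bars the group means of the log values, and grey lines part the experiments. The 5xFAD libraries (orange) lie highest for Ccl4 (184 to 364 CPM), the germline Irf8 groups (red, purple) lie low for Ccl4, Ccl9 and Ccl12, and Cxcl2 is seen mainly in those groups.

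To compare genes with each other, levels were divided by exon length and are given as CPM per kilobase. In WT at 9 months the order was Ccl12 (161 ± 38.6), Ccl6 (111 ± 18.4), Ccl4 (61.9 ± 27.9), Ccl3 (41.1 ± 23.3), Ccl9 (24.1 ± 2.26), Cxcl16 (21.8 ± 5.68), Ccl2 (9.93 ± 4.95), Cxcl10 (0.579 ± 0.623) and Cxcl2 (0.182 ± 0.315), each as mean and SD of 3 libraries. In 5xFAD, Ccl6 (672 ± 244) and Ccl12 (594 ± 275) led, followed by Ccl4 (356 ± 125) and Ccl3 (248 ± 123). In flox, Ccl6 (295 ± 58.4) and Ccl9 (174 ± 64.6) led, with Ccl12 at 90.3 ± 20.8. Ccl12, Ccl6, Ccl4, Ccl3 and Ccl9 thus made up the upper end of these levels, and the Cxcr2 and Cxcr3 ligands the lower end. The lengths are unions over all annotated transcripts, so levels of genes with long alternative exons are understated.

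At 3 months, 3 of the 9 ligands, Ccl3, Ccl4 and Ccl9, were lower in germline IRF8KO than in WT, and none was higher by the test. In the comparison of IRF8KO with WT, edgeR's quasi-likelihood test called 970 of 13121 genes at an adjusted p (Benjamini-Hochberg) under 0.05, which is 7.39%, 3.24% lower and 4.15% higher. For 3 of the 9 ligands the libraries of the groups did not overlap, as for 19.5% of all genes. In WT libraries Ccl3 stood at 67.3, 81.4, 32.9 and 29.4 CPM, and in IRF8KO at 4.86, 11.5, 4.57 and 13.4. The 2 ranges were apart, with all knockout values the lower, and the fitted level was 6.15-fold lower (log2 fold change -2.62, SE 0.52, adjusted p = 0.0121). In WT libraries Ccl4, the chromosome 11 neighbour of Ccl3, stood at 159.9, 157, 79.5 and 105 CPM, and in IRF8KO at 0.783, 0, 20.9 and 5.70. The groups did not overlap and differed 17.6-fold (log2 fold change -4.14, SE 1.00, adjusted p = 0.0285). In WT libraries Ccl9 stood at 401, 126, 85.8 and 102 CPM, and in IRF8KO at 22.2, 16.6, 31.8 and 38.2. Replicate 1 of WT stood far above the others, and all IRF8KO libraries lay below the lowest WT library (log2 fold change -2.70, SE 0.52, adjusted p = 0.0103).

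The Ccr1 ligand Ccl6, which neighbours these genes on chromosome 11, did not pass: WT libraries had 1195, 795, 305 and 559 CPM and IRF8KO libraries 714, 726, 670.5 and 473 CPM, so that the groups overlapped (log2 fold change -0.14, 95% interval -1.02 to 0.74). Of the Ccr2 ligands, Ccl12 ran at 115, 445, 33.4 and 81.6 CPM in WT and 40.1, 19.1, 93.03 and 26.4 in the knockout (log2 fold change -1.91, adjusted p = 0.124), and Ccl2 had a log2 fold change of -0.85 (95% interval -3.29 to 1.59). The Ccl12 ranges overlapped, and the interval of Ccl2 was wide enough to hold a change in either direction. Cxcl2 was counted in all 4 IRF8KO libraries (3.45, 19.8, 2.52 and 18.5 CPM) and in 1 of 4 WT libraries (9.70 CPM in replicate 2). That WT library alone overlapped, and the difference did not pass (log2 fold change 2.12, SE 1.57, adjusted p = 0.455); without it Cxcl2 was called (adjusted p = 0.0197). Cxcl10 ran at 0, 1.62, 41.1 and 15.4 CPM in the knockout and 0, 0, 4.32 and 0.802 in WT (log2 fold change 3.36, adjusted p = 0.237), and Cxcl16 had a log2 fold change of -0.22 (95% interval -1.16 to 0.72). Leaving out IRF8KO replicate 1 ended the call of Ccl3 (adjusted p = 0.0559), and leaving out WT replicate 1, IRF8KO replicate 1 or IRF8KO replicate 4 ended that of Ccl4 (highest adjusted p = 0.0831). The IRF8KO libraries had the larger neutrophil and smaller microglial marker shares given above; microglial markers had a median log2 fold change of -1.26 (4 of 10 called lower), neutrophil markers of 1.58 (4 of 12 called higher), and the median over all genes was -0.02, against -0.85 over the 9 ligands. Red blood cell markers made up 3.07 to 10.3% of counts in WT and 0.906 to 9.04% in IRF8KO. The part of these markers in the ligand differences was not tested.

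At 9 months, IRF8KO libraries had lower Ccl9 and Ccl12 and higher Ccl6 and Cxcl2 than WT. In that comparison 4136 of 14604 genes were called (28.3%), 8.68% lower and 19.6% higher; the ligands had a median log2 fold change of -0.76, against 0.25 over all genes, and 6 did not overlap between groups, as 49.3% of all genes. In WT libraries Ccl9 stood at 70.3, 86.9 and 77.8 CPM, and in IRF8KO at 4.33, 0 and 12.6. All IRF8KO libraries lay below all WT libraries (13.8-fold lower, log2 fold change -3.78, SE 0.91, adjusted p = 0.00906). Ccl12 went from 72.9, 118 and 86.3 CPM to 15.2, 11.6 and 10.4 CPM. These groups also did not overlap (7.43-fold lower, log2 fold change -2.89, SE 0.69, adjusted p = 0.00865). In WT libraries Ccl4 stood at 64.9, 33.5 and 31.6 CPM, and in IRF8KO at 2.23, 0 and 14.4, without overlap, but missed the threshold (log2 fold change -2.97, SE 1.08, adjusted p = 0.057). It was called by DESeq2 (adjusted p = 0.0215), with no filter on low counts (0.000148) and without IRF8KO replicate 3 (0.00637). Ccl2 measured 9.98, 18.9 and 7.29 CPM against 0.918, 3.22 and 0 CPM, also without overlap (log2 fold change -3.13, SE 1.36, adjusted p = 0.111), and was called by DESeq2 (adjusted p = 0.0414). Ccl3, which was lower at 3 months, had 53.7, 28.2 and 18.2 CPM in WT at 9 months, and its knockout values were 18.1, 41.4 and 12.2. Its groups overlapped (log2 fold change -0.51, 95% interval -1.82 to 0.80).

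Ccl6 rose in the 9-month knockout. It stood at 169.6, 223 and 244 CPM in WT and, in the knockout, at 1354, 518 and 389.7, each of the latter above each of the former (3.56-fold, log2 fold change 1.83, SE 0.54, adjusted p = 0.025). Cxcl2, the neutrophil attractant, measured 0, 0 and 1.22 CPM in WT, where the last value is 1 read, and 14.2, 23.6 and 5.64 CPM in IRF8KO. By total counts of 306 and 1 the ratio was 131 (exact 95% counting interval 23.3 to 5190), and the test gave an adjusted p of 0.0198. Cxcl16 (log2 fold change -0.76, 95% interval -1.895 to 0.376) and Cxcl10 (0.54, -4.28 to 5.36) did not pass. The call of Ccl6 ended without any single WT library or without IRF8KO replicate 1 (highest adjusted p = 0.158), that of Cxcl2 without WT replicate 1, WT replicate 2 or IRF8KO replicate 2 (highest adjusted p = 0.111), and that of Ccl9 in a model of only these groups (adjusted p = 0.0688). Beside these values, 9 of 10 microglial markers were called lower (median log2 fold change -2.95) and all 12 neutrophil markers higher, of which 8 were at 0 in every WT library, Ngp, Ltf and Camp among them. Markers of red blood cells (6 of 6), neurons (8 of 8), astrocytes (8 of 8), oligodendrocytes (7 of 8), monocytes (5 of 7) and border macrophages (5 of 7) were called higher too; red blood cell markers made up 2.39 to 15.8% of counts in IRF8KO and at most 0.00529% in WT. The part of these lists in the ligand differences was not tested.

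Whether the knockout effect differed between ages was tested as a difference of differences, in which 3717 of 15512 genes were called (24%), 18% upwards. Only Ccl6 was called among the ligands (log2 difference 2.04, SE 0.65, adjusted p = 0.0295): its change was -0.14 at 3 months and 1.83 at 9 months. For Ccl3 the difference was 2.18 (SE 0.83, adjusted p = 0.0657; DESeq2 0.0182). The others differed by -2.26 (Ccl2), 1.30 (Ccl4), -0.97 (Ccl9), -0.91 (Ccl12), 4.22 (Cxcl2), -2.88 (Cxcl10) and -0.47 (Cxcl16), with adjusted p from 0.307 to 0.704. Ages were also different experiments. The WT libraries of the IRF8KO experiment at 3 months held far more neutrophil marker RNA than WT libraries at 9 months. Age and library content therefore cannot be told apart here. The Ccl6 call ended when any of 5 of the 14 libraries was left out (WT replicate 1 or IRF8KO replicate 4 at 3 months, and WT replicate 1, WT replicate 2 or IRF8KO replicate 1 at 9 months; highest adjusted p = 0.107).

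**Figure D2:**
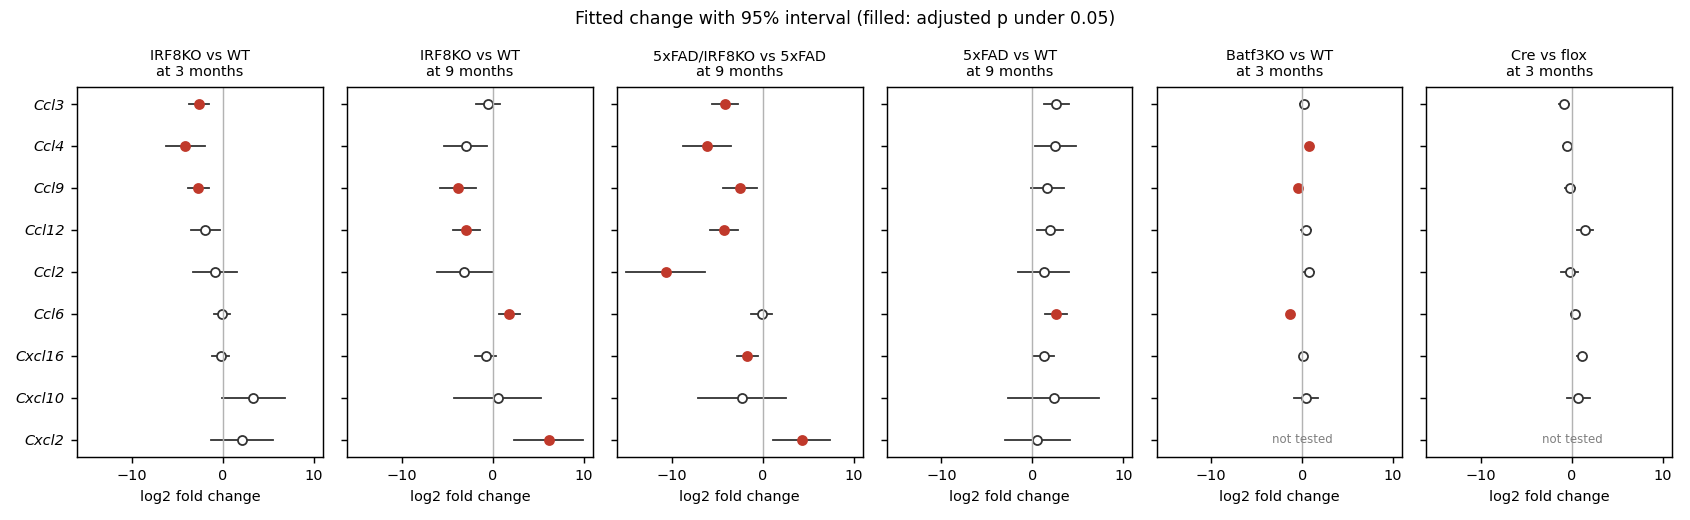
Fitted log2 fold changes (points) with 95% intervals (lines) of the 9 ligands in 6 comparisons; filled red points passed an adjusted p of 0.05 by edgeR's quasi-likelihood test. Ccl3, Ccl4, Ccl9 and Ccl12 lie left of 0 in the 3 germline Irf8 panels, intervals in the Batf3KO panel are narrow except for Cxcl10 (-0.88 to 1.71), and no point passes in the Cre panel, which includes Cre replicate 1; the Ccl2 point of the 5xFAD/IRF8KO panel rests on a group with no count and its position depends on the fit.

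In 5xFAD microglia, Ccl6 was the only ligand called higher than in WT, while 6 others were higher in every 5xFAD library without passing the test. This comparison called 290 of 14604 genes (1.99%), 1.81% higher. In 5xFAD libraries Ccl6 stood at 812, 1313 and 1821 CPM, and in WT at 169.6, 223 and 244. The groups lay far apart (6.21-fold, log2 fold change 2.63, SE 0.56, adjusted p = 0.0357). In 5xFAD libraries Ccl3 stood at 117, 179.9 and 326 CPM, and in WT at 53.7, 28.2 and 18.2 (log2 fold change 2.60, SE 0.63, adjusted p = 0.0593). Ccl4 measured 184, 219.5 and 364 CPM against 64.9, 33.5 and 31.6 CPM (log2 fold change 2.54, SE 1.04, adjusted p = 0.349). For both Ccl3 and Ccl4 the groups were apart, and replicate 3 of 5xFAD was the highest. In 5xFAD libraries Ccl9 stood at 200.1, 265 and 259 CPM, and in WT at 70.3, 86.9 and 77.8 (log2 fold change 1.62, adjusted p = 0.539). Ccl12 measured 177, 508 and 359.7 CPM against 72.9, 118 and 86.3 CPM (log2 fold change 1.91, adjusted p = 0.22). Cxcl16 measured 185, 158 and 154 CPM against 78.0, 83.0 and 49.8 CPM (log2 fold change 1.23, adjusted p = 0.382). In each of these the groups did not overlap; together with Ccl3, Ccl4, Ccl6 and Cxcl10 that makes 7 of 9 ligands, where 38.3% of all tested genes had groups that did not overlap.

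In 5xFAD libraries Ccl2 stood at 7.19, 44.1 and 35.7 CPM, and in WT at 9.98, 18.9 and 7.29, with 5xFAD replicate 1 among the WT values (log2 fold change 1.25, 95% interval -1.55 to 4.05). Cxcl10 was low but apart, at 6.46, 6.41 and 9.84 CPM against 2.92, 0 and 1.22 CPM (log2 fold change 2.35, SE 2.30). Cxcl2 had 5 counts over the 5xFAD libraries together and 1 over the WT libraries, a ratio of 2.58 (exact 95% counting interval 0.288 to 122); the mean CPM ran the other way, 0.249 in 5xFAD and 0.405 in WT, so no direction is given. The spread used here came from all 12 libraries aged 9 months. A model of only the 5xFAD and WT libraries called 4546 of 10452 genes (43.5%), with 20.8% called higher, and 7 ligands, all higher: Ccl3, Ccl4, Ccl6, Ccl9, Ccl12, Cxcl10 and Cxcl16, with log2 fold changes from 1.12 (Cxcl16) to 2.58 (Ccl6). In the 12-library model, leaving out any 1 library of either group ended the call of Ccl6 (adjusted p from 0.0538 to 0.238). The 9 ligands had a median log2 fold change of 1.91, against 0.00181 over all genes. Neutrophil markers were at most 0.000330% of counts in either group, and microglial markers made up 6.37 to 6.53% in WT and 5.32 to 6.02% in 5xFAD. Of 12 immediate early genes, 3 were lower in 5xFAD, among them Fos (1.56 against 63.5 CPM, log2 fold change -5.31, adjusted p = 0.0083) and Jun (-3.17). The 5xFAD library with Y-linked transcripts, replicate 3, had the highest Ccl3, Ccl4, Ccl6 and Cxcl10 of its group, and the part of sex or of these early genes in the ligand differences was not tested.

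Within 5xFAD, 6 of the 9 ligands, Ccl2, Ccl3, Ccl4, Ccl9, Ccl12 and Cxcl16, were lower in libraries without Irf8, and Cxcl2 was higher. The comparison of 5xFAD/IRF8KO with 5xFAD called 4054 of 14604 genes (27.8%), with 9.72% lower and 18% higher. The groups did not overlap for 8 ligands, nor for 48.7% of all genes. In 5xFAD/IRF8KO libraries Ccl3 stood at 18.8, 11.1 and 5.38 CPM, and in 5xFAD at 117, 179.9 and 326 (17.6-fold lower, log2 fold change -4.13, SE 0.67, adjusted p = 0.000816). Ccl4 measured 4.45, 0.927 and 5.75 CPM against 184, 219.5 and 364 CPM (68.5-fold lower, log2 fold change -6.10, SE 1.23, adjusted p = 0.00335). For both Ccl3 and Ccl4 the highest 5xFAD/IRF8KO library lay far below the lowest 5xFAD library. Ccl12 measured 25.4, 2.41 and 27.6 CPM against 177, 508 and 359.7 CPM (18.8-fold lower, log2 fold change -4.23, SE 0.73, adjusted p = 0.00118). Ccl2 had no count in 5xFAD/IRF8KO and 382 counts over the 5xFAD libraries, at least 232-fold lower when 3 counts are allowed to the whole group (adjusted p = 0.00299). Ccl9 measured 57.5, 41.0 and 33.1 CPM against 200.1, 265 and 259 CPM (5.49-fold lower, adjusted p = 0.0477). Cxcl16 measured 51.9, 33.1 and 68.7 CPM against 185, 158 and 154 CPM (3.23-fold lower, adjusted p = 0.0319). In all 6 the groups were fully apart.

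In 5xFAD/IRF8KO libraries Cxcl2 stood at 5.22, 9.82 and 2.69 CPM, and in 5xFAD at 0.182, 0.565 and 0, again without overlap (log2 fold change 4.33, SE 1.44, adjusted p = 0.0413). Ccl6 did not differ by the test, at 1380, 1846 and 471 CPM against 812, 1313 and 1821 CPM, with a log2 fold change of -0.09 and a 95% interval from -1.23 to 1.05. Its groups overlapped here and at 3 months. Cxcl10 had 0, 4.82 and 0 CPM against 6.46, 6.41 and 9.84 CPM (log2 fold change -2.22, SE 2.22). The call of Ccl9 ended when any 1 of the 6 libraries was left out (adjusted p from 0.0761 to 0.126), and those of Cxcl16 (highest adjusted p = 0.0953) and Cxcl2 (highest adjusted p = 0.161) when any but 5xFAD/IRF8KO replicate 3 was left out. All 10 microglial markers were called lower in 5xFAD/IRF8KO (median log2 fold change -3.02) and all 12 neutrophil markers higher, as were markers of red blood cells (6 of 6), neurons (8 of 8) and astrocytes (7 of 8). Y-linked transcripts were present in all 5xFAD/IRF8KO libraries but, among the 5xFAD libraries, only in replicate 3. The part of these markers and of sex in the ligand differences was not tested. The median log2 fold change was -2.46 over the 9 ligands, also with Ccl2 at its bound, and 0.235 over all genes.

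Without Irf8, no ligand was called between 5xFAD/IRF8KO and IRF8KO at 9 months, a comparison that called 24 of 14604 genes (0.164%). At an unadjusted p under 0.05 there were 2 ligands and 12.7% of all genes, and DESeq2 called 2, Ccl2 and Ccl9. In 5xFAD/IRF8KO libraries Ccl9 stood at 57.5, 41.0 and 33.1 CPM, and in IRF8KO at 4.33, 0 and 12.6, without overlap (log2 fold change 2.95, SE 0.88, adjusted p = 0.181). Ccl3 had a log2 fold change of -1.02 (95% interval -2.33 to 0.30), Ccl4 of -0.58 (-2.81 to 1.65), Ccl6 of 0.71 (-0.44 to 1.85) and Ccl12 of 0.57 (-0.84 to 1.98). Cxcl2 had -1.29 (-3.94 to 1.36), Cxcl10 -0.41 (-5.05 to 4.24) and Cxcl16 0.30 (-0.83 to 1.42). Ccl2 had 28 counts over IRF8KO and none over 5xFAD/IRF8KO, at least 14.1-fold lower, without a call by edgeR (adjusted p = 0.169). Whether the 5xFAD difference depended on Irf8 was tested by the interaction, which called 64 genes (0.438%) and none of the ligands by edgeR, with 3 ligands and 14.7% of all genes at an unadjusted p under 0.05, and 2 called by DESeq2 (Ccl2 and Ccl3). For Ccl3 the log2 interaction was -3.62 (SE 0.87, adjusted p = 0.0841), made of 2.60 with Irf8 and -1.02 without. For Ccl4 it was -3.12 (SE 1.45, adjusted p = 0.348) and for Ccl6 -1.92 (SE 0.75, adjusted p = 0.25). For Ccl2 (adjusted p = 0.14) its size rests on a group with no count and depends on the fit. The others had interactions of 1.33 (Ccl9), -1.34 (Ccl12), -1.82 (Cxcl2), -2.76 (Cxcl10) and -0.93 (Cxcl16), with adjusted p from 0.5676 to 0.796. The 4 comparisons at 9 months share groups, so their values stand side by side and are not independent of each other.

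**Figure D3:**
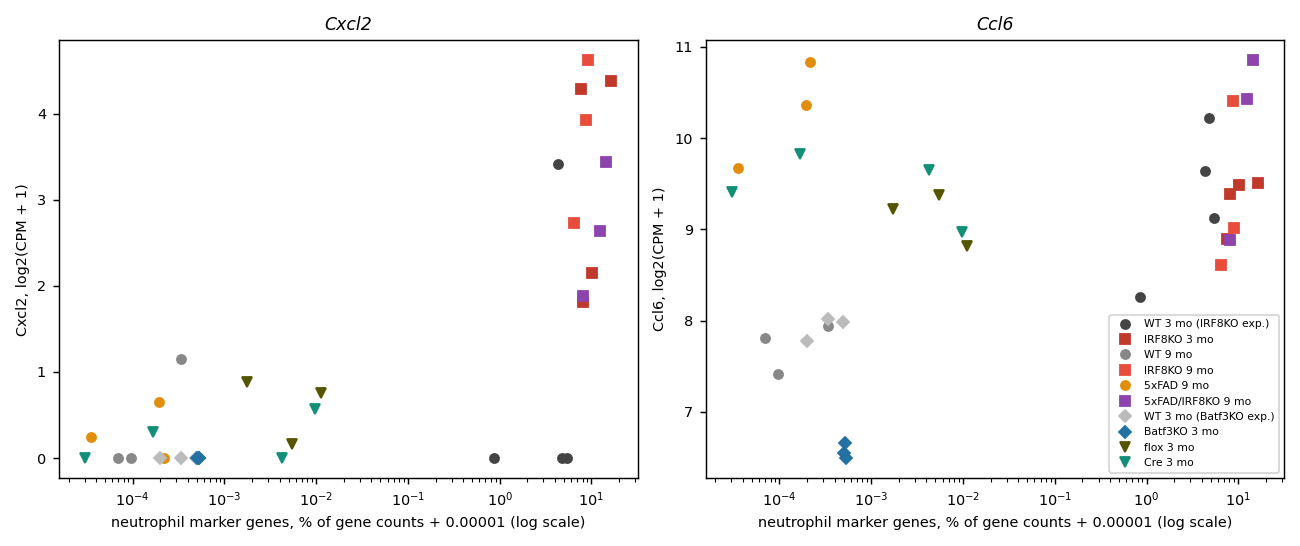
Level of Cxcl2 (left) and Ccl6 (right) in each library, as log2(CPM + 1), against the share of counts in the 12 neutrophil marker genes on a log scale; colours and shapes are the 10 groups. Cxcl2 above 2 CPM is seen in libraries with a neutrophil share of 4.32% or more, where WT replicates at 3 months also lie at 0; Ccl6 is high at both ends of the axis, as in 5xFAD (812 to 1821 CPM).

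Cxcl2 was seen mainly in the groups with neutrophil marker RNA, but its level did not rank these groups by that share. At 9 months its mean was 14.5 CPM in IRF8KO (share 6.46 to 9.05%) and 5.91 CPM in 5xFAD/IRF8KO (8.18 to 14.5%). Within each of these groups, libraries with a larger share had more Cxcl2. All 10 libraries of the germline Irf8 groups had Cxcl2 counts and at least 6.46% neutrophil marker RNA. In the WT group of the IRF8KO experiment at 3 months, replicate 2 had 9.70 CPM of Cxcl2 at a share of 4.32%. Replicates 1 and 4 of that group had none at 4.80% and 5.39%. In the Batf3KO experiment, where the share was at most 0.000516%, Cxcl2 had no count in 6 libraries, which allows up to 0.0665 CPM over the WT and 0.0608 CPM over the Batf3KO group. The part of neutrophil RNA in the Cxcl2 counts was not tested. Ccl6 was high outside the groups with neutrophil marker RNA as well: 5xFAD libraries reached 1821 CPM at a share of at most 0.000207%.

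Loss of Batf3, a partner of Irf8 in dendritic cells, changed 3 ligands of the 8 that could be tested. Ccl6 and Ccl9 fell and Ccl4 rose, in a comparison that called 503 of 13128 genes (3.83%), 2.42% lower and 1.41% higher. In WT libraries Ccl6 stood at 219, 253 and 258 CPM, and in Batf3KO at 89.2, 92.96 and 99.96. The groups were far apart against a small spread (2.59-fold lower, log2 fold change -1.37, SE 0.09, adjusted p = 1.465e-06), and the call held without any single library. Ccl9, the other Ccr1 ligand and the neighbour of Ccl6, measured 139, 182 and 177 CPM in WT and, with Batf3 lost, 117, 125 and 127 (1.35-fold lower, log2 fold change -0.43, SE 0.10, adjusted p = 0.0356). In WT libraries Ccl4 stood at 32.9, 37.5 and 24.5 CPM, and in Batf3KO at 52.0, 45.4 and 59.5 (1.65-fold higher, log2 fold change 0.72, SE 0.16, adjusted p = 0.021). Neither pair of groups overlapped. Ccl2 was apart as well, at 3.72, 3.51 and 4.62 against 4.78, 6.54 and 8.05 CPM, but did not pass (log2 fold change 0.71, SE 0.27, adjusted p = 0.173). In all, 4 ligands did not overlap between groups, where 24% of all genes did not.

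Ccl3, the neighbour of Ccl4, measured 18.6, 15.6 and 15.9 CPM in WT and, with Batf3 lost, 21.5, 15.0 and 19.9 (log2 fold change 0.17, 95% interval -0.20 to 0.54). Ccl12 was 62.9, 43.3 and 50.5 CPM against 46.4, 50.1 and 114 CPM, with only replicate 3 of Batf3KO high (log2 fold change 0.43, -0.16 to 1.02). Cxcl16 was 76.2, 74.8 and 79.4 CPM against 80.6, 75.0 and 89.6 CPM (0.09, -0.12 to 0.30), and Cxcl10 overlapped widely (0.42, -0.88 to 1.71). The median log2 fold change was 0.294 over the 8 ligands and 0.00239 over all genes. Leaving out WT replicate 1, Batf3KO replicate 1 or Batf3KO replicate 3 ended the call of Ccl4 (highest adjusted p = 0.0818), and leaving out any library but WT replicate 1 ended that of Ccl9 (highest adjusted p = 0.169). Microglial markers made up 6.68 to 6.90% of counts in WT and 6.51 to 6.68% in Batf3KO, with none of 10 called. Oligodendrocyte markers were lower in 2 of 6 tested, among them Mbp (log2 fold change -0.72), and their part was not tested.

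The Batf3 effect was tested against the germline Irf8 effect at 3 months, a difference that called 529 of 16426 genes (3.22%) and 2 ligands, both upwards as 1.17% of all genes. Ccl3 had a log2 difference of 2.68 (SE 0.63, adjusted p = 0.0318), being -2.62 with Irf8 loss and 0.17 with Batf3 loss. Ccl4 differed by 4.70 (SE 1.20, adjusted p = 0.045), being -4.14 and 0.72. For Ccl9 the difference was 2.14 (SE 0.62, adjusted p = 0.0773) and for Ccl6 -1.35 (SE 0.47, adjusted p = 0.134). Ccl2 (1.46), Ccl12 (2.20), Cxcl10 (-3.00) and Cxcl16 (0.19) had adjusted p from 0.254 to 0.914, and Cxcl2, with no count in the Batf3KO experiment, could not be compared. The experiments had separate WT groups that differed in neutrophil share, as given above. The call of Ccl3 ended when any of 8 and that of Ccl4 when any of 10 of the 14 libraries was left out, among them each library of the Batf3KO experiment (highest adjusted p 0.109 and 0.149).

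The conditional experiment gave another pattern: in the 3 Cre libraries with reduced Irf8, Ccl12 and Cxcl16 were higher and Ccl3 lower than in flox. By the labels only the Cre group carried the recombinase, so it and the deletion cannot be told apart for any gene. The flox means of Ccl12 and Cxcl16 lay below those of the WT groups, as given above. With all 4 Cre libraries edgeR called 0 of 15512 genes (0%), while 1407 (9.07%) had an unadjusted p under 0.05 and DESeq2 called 164. Of the 8 ligands tested, 4 had an unadjusted p under 0.05, edgeR called none and DESeq2 called 1, Cxcl16 (adjusted p = 0.0128). The groups did not overlap for 3 ligands, nor for 7.31% of all genes. In flox libraries Cxcl16 stood at 34.5, 35.3 and 34.6 CPM, and in Cre at 39.5, 76.2, 84.0 and 89.3. Cre replicate 1, the library with Irf8 at the flox level, was the lowest of its group, and all Cre libraries lay above flox (log2 fold change 1.05, SE 0.25, adjusted p = 0.193). In flox libraries Ccl12 stood at 44.2, 66.7 and 46.2 CPM, and in Cre at 40.7, 152, 187 and 184. Here Cre replicate 1 lay below all flox libraries and the other 3 far above them (log2 fold change 1.43, SE 0.40, adjusted p = 0.25). In flox libraries Ccl3 stood at 60.9, 119 and 63.2 CPM, and in Cre at 44.5, 32.2, 39.6 and 56.4, without overlap (log2 fold change -0.90, SE 0.25, adjusted p = 0.249). Ccl4 measured 91.1, 158 and 93.6 CPM against 76.2, 64.8, 87.5 and 90.2 CPM, also just without overlap (log2 fold change -0.52, SE 0.21, adjusted p = 0.47). Ccl2 (-0.25), Ccl6 (0.34), Ccl9 (-0.19) and Cxcl10 (0.67) had adjusted p from 0.754 to 0.949.

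Without Cre replicate 1, 952 of 15264 genes were called (6.24%), 3.74% higher and 2.5% lower, and 5 ligands did not overlap between groups, nor did 19.7% of all genes. Ccl12 was then 3.32-fold higher (log2 fold change 1.73, SE 0.19, adjusted p = 2.43e-06), Cxcl16 2.39-fold higher (1.25, SE 0.17, adjusted p = 2.73e-05) and Ccl3 1.89-fold lower (-0.92, SE 0.24, adjusted p = 0.0242). Ccl6 was 599, 449 and 663 CPM in flox and 678, 909 and 802 CPM in these Cre libraries, all above flox, and did not pass (log2 fold change 0.48, SE 0.19, adjusted p = 0.184). Ccl9, next to Ccl6 in CPM per kilobase in flox, was 611, 344 and 756 CPM in flox against 405, 595, 441 and 564 CPM in all Cre libraries. It overlapped throughout (log2 fold change without replicate 1 of -0.10, 95% interval -0.58 to 0.37). Ccl2 (-0.03, -0.75 to 0.70) and Cxcl10 (0.02, -0.98 to 1.03) did not differ by the test, and Cxcl2 had too few counts to be tested (14 over flox, 6 over all Cre libraries). Among the other libraries left out in turn, none brought a ligand past the threshold. In the germline knockout Batf3 fell, to a mean of 0.764 CPM against 32.4 CPM in WT at 3 months (adjusted p = 0.00543) and to no count against 18.8 CPM at 9 months (at least 149-fold lower, adjusted p = 0.000511). In the 3 Cre libraries with reduced Irf8 it was at 34.7 to 67.6 CPM, against 1.93 to 4.57 CPM in flox and 1.32 CPM in Cre replicate 1. The flox values were thus also far below these WT means and that of the Batf3KO experiment (24.6 CPM), each on its own scale. The reason for the low flox values was not tested. Border macrophage markers were at 0.0111 to 0.0157% of counts in flox, 0.0204% in Cre replicate 1 and lower in the other Cre libraries, where Mrc1, Pf4 and Cbr2 were called lower; the part of those cells in the ligand differences was not tested.

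**Figure D4:**
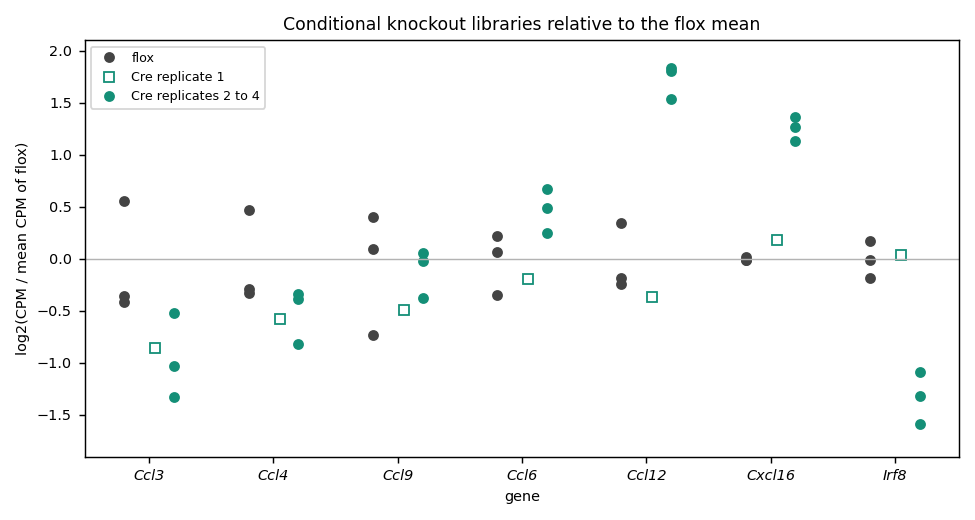
Level of 6 ligands and of Irf8 in each library of the conditional experiment, as log2 of CPM divided by the mean CPM of the flox group; grey circles are flox, the open square is Cre replicate 1 and green circles are Cre replicates 2 to 4. Cre replicate 1 lies within flox for Irf8 (1134 CPM), just below it for Ccl12 (40.7 CPM) and just above it for Cxcl16 (39.5 CPM), while the other 3 lie lower for Irf8 (367 to 521 CPM) and higher for Ccl12 and Cxcl16.

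The conditional and germline effects were compared directly at 3 months with all libraries, and 1223 of 17361 genes differed (7.04%), 4.37% upwards. Ccl9 had a log2 difference of 2.58 (SE 0.62, adjusted p = 0.0186), being -2.70 in the germline and -0.19 in the conditional knockout. Ccl12 differed by 3.41 (SE 0.97, adjusted p = 0.0414), from -1.91 to 1.43, and Ccl4 by 3.67 (SE 1.08, adjusted p = 0.048), from -4.14 to -0.52. For Ccl3 the difference was 1.80 (SE 0.60, adjusted p = 0.0784), and for Cxcl16 1.35 (SE 0.53, adjusted p = 0.134). Ccl2 (0.70), Ccl6 (0.54), Cxcl2 (-3.64) and Cxcl10 (-2.49) had adjusted p from 0.355 to 0.813. Ccl3 and Ccl4 had lower values in both designs, and Ccl12 had values of opposite sign. The call of Ccl4 ended when any of 11 of the 15 libraries was left out, that of Ccl12 when any of 10 was, and that of Ccl9 without flox replicate 1 or flox replicate 2 (highest adjusted p 0.147, 0.128 and 0.0688). Leaving out Cre replicate 1, the library with Irf8 at the flox level, ended the call of Ccl4 but not those of Ccl9 and Ccl12. Neutrophil markers were at most 0.0112% in both conditional groups and up to 16.4% in the germline experiment, and microglial markers made up 3.45 to 3.62% in flox and 2.86 to 3.55% in Cre.

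Other genes of the chemokine system were read from lists of 28 further ligands and 23 receptors. In IRF8KO at 3 months, 2 of 10 tested ligands were higher and none lower (median log2 fold change 0.476), beside 4.15% and 3.24% of all genes. These were Pf4, a ligand made by platelets and border macrophages (689.9 against 43.7 CPM, log2 fold change 3.97, adjusted p = 0.000908), and the neutrophil attractant Cxcl1 (205 counts against 1, a ratio of 236 with a counting interval of 41.9 to 9370). At 9 months 5 of 11 were higher and 2 lower, beside 19.6% and 8.68% of all genes, with Cxcl14 and Pf4 among the higher. At 9 months 2 of 12 tested receptors were higher and 5 lower in IRF8KO, and 3 were higher and 5 lower in 5xFAD/IRF8KO against 5xFAD, where 19.6% and 8.68% and then 18% and 9.72% of all genes were called in these directions. Cxcr2, the neutrophil receptor of Cxcl2, was higher in IRF8KO at 9 months (315.5 against 0.205 CPM, log2 fold change 9.58, adjusted p = 1.32e-05). It was higher in 5xFAD/IRF8KO as well, with 14137 counts against 2 in 5xFAD (a ratio of 3870 with a counting interval of 1070 to 32000). In 5xFAD against WT none of 11 further ligands and none of 12 receptors was called. In Batf3KO the Ccr1 receptor, which reads Ccl6 and Ccl9, was higher (57.9 against 25.9 CPM, log2 fold change 1.16, adjusted p = 0.01). In the conditional knockout without Cre replicate 1, 3 of 10 tested receptors were higher, Cx3cr1 and Ccr1 among them, beside 3.74% of all genes. The recombinase of the Cre group is driven from the Cx3cr1 gene, so the driver and the deletion cannot be told apart for Cx3cr1. This holds for the other genes too, as by the labels only the Cre group carried the recombinase. Of 9 tested further ligands, Pf4, Ccl7 and Cxcl14 were lower, beside 2.5% of all genes.

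Lists of inflammatory and interferon-driven genes were read the same way. Of 12 cytokine and NF-kB feedback genes, Icam1 was lower in IRF8KO at 3 months (log2 fold change -1.35, adjusted p = 0.0369) and Il1b higher in 5xFAD (16.4 against 1.82 CPM, log2 fold change 2.99, adjusted p = 0.0407). Il1b, the interleukin-1 beta gene, was also higher in IRF8KO at 9 months (62.7 CPM, log2 fold change 4.97), where neutrophil markers were high. Il1a fell in Batf3KO (17.3 against 86.4 CPM, log2 fold change -2.32, adjusted p = 1.54e-06). Of the interferon-stimulated genes, to which Cxcl10 belongs by its induction, 5 of 10 tested were lower in the conditional knockout without Cre replicate 1, beside 2.5% of all genes, with Isg15, Oasl2 and Irf7 among them. With all 4 Cre libraries 0 of 10 were called, and none of 11 was called in 5xFAD. Cxcl10 itself was called in neither.

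Likeness of pattern was measured over the 33 libraries as Pearson r of log2(CPM + 1) after the mean of each experiment's control group had been taken off, and is given as a description. Libraries of a group share their genotype, sort and content. Among the ligands, Ccl4 and Ccl9 (r = 0.81), Ccl12 and Cxcl16 (0.81), Ccl4 and Ccl12 (0.77), Ccl2 and Ccl12 (0.75) and Ccl3 and Ccl4 (0.74) were most alike. Cxcl2 ran opposite to Ccl4 (-0.77) and Ccl9 (-0.76). Of 14054 genes, those most like Ccl4 were Rdh14 (0.94), Cst3 (0.93) and Pmp22 (0.92). Those most like Ccl12 were C1qa (0.91), Selenop (0.89) and Stard3nl (0.88). Cxcl16 was most like Ctsb (0.87), Cndp2 (0.86) and Hexa (0.83), which includes lysosomal enzyme genes. Cxcl2 was most like Gfi1 (0.90), a transcription factor of neutrophil precursors, Prss57 (0.89) and Ighv1-41 (0.89). Ccl9 was most like Rrad (0.89), Timp2 (0.89) and Cryba4 (0.88), Ccl3 like Sdf2 (0.89), Ciao2b (0.88) and Creg1 (0.87), Ccl6 like Gm5905 (0.86), Rpl4 (0.85) and Tmem134 (0.84), and Ccl2 like Pkdcc (0.86), Asb10 (0.86) and Tmem150a (0.86). Cxcl10 had the weakest match, Reep6 (0.75).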

How the data were processed

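RNA was taken from sorted microglia, made into cDNA with SMART-Seq v4 (15 amplification cycles, no molecular identifiers) and tagged with Nextera XT, per the labels' protocols. The authors deposited raw counts of read pairs (2 reads of 55 bases) per gene, laid out as STAR gene counts; the submitters' processing notes name STAR 2.5.2b, Picard 2.17.11, featureCounts and build mm10. The unstranded column was used. Gene symbols and exon lengths came from GENCODE M21 (54079 of 54146 identifiers matched), and library sizes counted only genes (47.3 to 78.6% of each library's reads).

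Each experiment was fitted with edgeR 4.0.16 (R 4.3.3; filterByExpr, TMM factors, quasi-likelihood test, Benjamini-Hochberg adjustment over all tested genes, threshold 0.05); the 12 libraries aged 9 months shared one model. Differences between effects were fitted as contrasts over the libraries of both experiments. CPM used TMM factors. Alternatives were DESeq2 1.42.0, its size factors, no filter, a replicate block, models of only the groups compared, both strand columns summed, and each library left out. All members are reported; of each further list up to 3 called genes with the largest change and at least 5 CPM were to be named, and the 3 genes most alike in pattern. Members and lists were chosen with earlier results of these data known. No replicate pair of a group agreed within sampling noise (chi-square per degree of freedom at least 2.27). One gene of the receptor list is not reported here.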

Additional observations from a re-analysis of the deposited data

Results flagged for a closer look

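In groups of 4 libraries, 27 combinations of ligand and group were examined for a library far from the others, and chance alone marks about 1 in 20. Ccl2 was at 0 CPM in IRF8KO replicate 1 at 3 months, apart from its 3 fellow libraries. Ccl9 was at 401 CPM in WT replicate 1 of the same experiment, the library with 2305663 counts, and Cxcl2 was at 9.70 CPM in WT replicate 2. The other WT libraries of that experiment had no Cxcl2 count, so the rate of 1 in 20 may not hold there.

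Among effects compared between groups, the Irf8 knockout effect on Ccl6 differed between 9 and 3 months by 2.04 on the log2 scale. The conditional and germline Irf8 effects differed for Ccl4 by 3.67, for Ccl9 by 2.58 and for Ccl12 by 3.41. The Batf3 and germline Irf8 effects differed for Ccl3 by 2.68 and for Ccl4 by 4.70. These were tested by edgeR's contrast of the differences, and the libraries compared differed in neutrophil marker share as well as in genotype.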

How the results depend on the processing

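Counts of genes called moved with the tool, the filter, the groups in the model and single libraries, and the cause was not tested. Without a filter on low counts, 1655 genes were called for IRF8KO at 3 months (970 in the report), 163 for 5xFAD (290), 320 for 5xFAD/IRF8KO against IRF8KO (24), 238 for the interaction (64), 998 for Batf3KO (503) and 618 for Cre (0). DESeq2 called 2049, 900, 714, 904, 842 and 164 in the same order, 2162 for conditional against germline (1223) and 1401 for Batf3 against Irf8 (529). A model of only the 2 groups called 4546 for 5xFAD and 0 for 5xFAD/IRF8KO against IRF8KO.

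Of the ligands, no filter gave 5 calls for IRF8KO at 3 months (3 in the report), 4 for 5xFAD (1), 2 for 5xFAD/IRF8KO against IRF8KO (0), 3 for the interaction (0) and 3 for Cre (0). DESeq2 gave 2 for 5xFAD, 2 for 5xFAD/IRF8KO against IRF8KO, 2 for the interaction, 1 for Cre and 2 for the effect at 9 against 3 months (1). The 2-group model gave 7 for 5xFAD, and DESeq2's size factors gave 2 for 9 against 3 months. Those size factors moved the median of all genes by 0.17 for 9 against 3 months and for Batf3 against Irf8, where the share of calls that were higher went from 36.3 to 50.7%; it went from 91 to 81% for 5xFAD and from 43.8 to 62.5% for the interaction.

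Replicate numbers gave little sign of pairing: the correlation of same-numbered libraries ran from -0.153 to 0.167, and 9 of 28 correlated best with their own number. Between WT and IRF8KO at 3 months, replicates 2, 3 and 4 did so (r = 0.167, 0.154 and 0.0991) and replicate 1 did not. These values do not decide whether the libraries of that experiment were paired. With the replicate block, 105 genes were called for 5xFAD, 0 for 5xFAD/IRF8KO against IRF8KO, 9 for the interaction, 216 for Batf3KO, 293 for conditional against germline and 252 for Batf3 against Irf8; ligands called were 0, 0, 0, 1, 0 and 0, and 0 for 9 against 3 months. It ended the calls of Ccl6 in IRF8KO at 9 months (adjusted p = 0.0565) and of Ccl9 (0.0757) and Cxcl2 (0.0644) in 5xFAD/IRF8KO against 5xFAD, and added that of Ccl4 in IRF8KO at 9 months (0.0279). The block also turned Cxcl10 to -3.44 in IRF8KO at 9 months and to -0.065 in Batf3KO.

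With each library left out, genes called ranged from 305 to 1128 for IRF8KO at 3 months, 2266 to 4126 at 9 months, 2 to 102 for 5xFAD, 2325 to 4055 for 5xFAD/IRF8KO against 5xFAD, 38 to 140 against IRF8KO, 2 to 189 for the interaction, 219 to 596 for Batf3KO, 0 to 952 for Cre, 2191 to 4053 for 9 against 3 months, 471 to 1780 for conditional against germline and 154 to 1091 for Batf3 against Irf8. Ligands called ranged, in that order, from 1 to 4, 2 to 5, 0 to 0, 4 to 6, 0 to 1, 0 to 0, 1 to 2, 0 to 3, 0 to 2, 0 to 4 and 0 to 3. Signs turned, without a call, for Ccl6 (-0.39 to 0.27) and Cxcl16 (-0.49 to 0.14) in IRF8KO at 3 months, Cxcl10 at 9 months (-6.44 to 2.00), Cxcl2 in 5xFAD (-0.77 to 4.17), Ccl6 in 5xFAD/IRF8KO against 5xFAD (-0.51 to 0.29), and against IRF8KO for Ccl4 (-1.17 to 1.69), Cxcl10 (-6.81 to 6.46) and Cxcl16 (-0.0737 to 1.31). They also turned for Cxcl10 (-9.16 to 4.14) and Cxcl16 (-1.27 to 0.12) in the interaction, Ccl12 (-0.11 to 0.66) and Cxcl10 (-1.07 to 0.88) in Batf3KO, Ccl2 (-0.60 to 0.38) and Ccl9 (-0.44 to 0.0702) in Cre, Ccl4 (-0.97 to 2.98) and Cxcl2 (-3.03 to 7.45) for 9 against 3 months, and Cxcl16 (-0.14 to 0.49) for Batf3 against Irf8. With a library left out, 759 values of single ligands kept their direction and side of the threshold. A call ended for 87 values and appeared for 14, and the direction turned for 25. WT replicate 3 at 9 months, the shallowest library, allows up to 4.96 CPM at a count of 0, above the Cxcl2 and Cxcl10 values of all WT libraries of that age.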
